A study of Mus musculus with 11 samples.

Results

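The genes described here are chemokine ligands that draw T cells into tissue or are made by epithelium, and they were followed in whole-kidney RNA sequencing of lupus-prone and control mice. The symbols Cxcl9, Cxcl10, Cxcl11, Cxcl16, Ccl5, Cxcl1, Cxcl2, Cxcl14, Cxcl17 and Cx3cl1 were looked up in the gene column of the count table, a rule that uses no measured value. The table held 9 of these 10 genes among 25677 genes and 38 chemokine ligand symbols. Cxcl11 was not analysed here. By family, Ccl5 is a CC chemokine and Cx3cl1 is the CX3C chemokine, while the others are CXC chemokines.

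Kidneys came from 3 groups of female mice killed at 21 weeks of age. The Ctr group held 3 mice labelled C57B6, which the study's methods give as C57BL/6J. The Lpr group held 4 untreated mice labelled MRL/lpr, an autoimmune strain homozygous for the lpr mutation of the death receptor gene Fas that develops lupus nephritis. The DNase group held 4 MRL/lpr mice labelled with DNase I treatment, an enzyme that degrades extracellular DNA, injected into the peritoneum each day from week 17 until week 21. A vehicle for the other groups is not given in the sources used here. The control strain differs from MRL/lpr in its whole genetic background as well as in Fas, so strain and disease cannot be told apart in any comparison with Ctr. The 11 libraries held 33469858 to 38460873 counts assigned to genes, and no batch is named in the labels. Total Fas counts were 188 to 292 in Ctr, 201 to 288 in Lpr and 224 to 256 in DNase, and a count over the whole gene does not show which exons were read, so it does not check the mutation. Markers of proximal tubule, which define the labelled tissue, summed to 7198 to 15469 CPM (counts scaled by library size) over the 11 kidneys. One library, Lpr replicate 3, stood apart: the slope of its log2 CPM on gene length was -0.39 per doubling of length, against -0.04 to 0.08 in the other 10, so that short transcripts such as Ccl5 read high there.

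Chemokines are small secreted or membrane-bound proteins that guide leukocytes along gradients through receptors coupled to G proteins. Cxcl9 and Cxcl10 are induced in macrophages, endothelium and epithelium by interferons and bind Cxcr3 on activated T cells and NK cells, whereas Ccl5 is made largely by T cells and NK cells themselves and binds receptors such as Ccr1 and Ccr3. Cxcl16 and Cx3cl1 are made as transmembrane proteins that can hold cells bearing Cxcr6 or Cx3cr1 and are released by the proteases Adam10 and Adam17. Cxcl1 and Cxcl2 recruit neutrophils through Cxcr2 and are induced by IL-1, TNF and IL-17, and Cxcl14 and Cxcl17 are epithelial chemokines. In lupus nephritis the Cxcr3 ligands and Cxcl16 are known from inflamed tubules and infiltrates.

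Upstream sequences were examined because Cxcl9, Cxcl10, Cxcl1 and Cxcl2 are textbook targets of NF-kappaB. RefSeq windows on build GRCm38.p6 were found for 6 of the 10 listed genes, Cxcl9, Cxcl10, Cxcl1, Cxcl2, Cxcl14 and Cx3cl1, and not for Cxcl11, Cxcl16, Ccl5 and Cxcl17. The 250 bases before each start were searched on both strands for GGGANTTCC and GGGANNTTCC, which are NF-kappaB motifs that differ by 1 base of spacing, for GAAANNGAAA, an interferon-stimulated response element, and for TTCNNNGAA, a gamma-activated site. These motifs were chosen with the sequences in view. Stretches of 4 promoters follow, read 5′ to 3′ on the strand of the gene, with motif matches in capitals; they lie at chr5:92328080-92328159 (minus strand), chr5:92348975-92349114 (minus strand), chr5:90891145-90891234 (plus strand) and chr5:90903769-90903868 (plus strand).
Cxcl9: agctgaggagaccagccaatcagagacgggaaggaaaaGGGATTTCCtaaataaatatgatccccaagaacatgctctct
Cxcl10: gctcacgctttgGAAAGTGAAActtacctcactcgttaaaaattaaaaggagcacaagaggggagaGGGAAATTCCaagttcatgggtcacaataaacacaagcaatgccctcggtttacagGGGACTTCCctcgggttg
Cxcl1: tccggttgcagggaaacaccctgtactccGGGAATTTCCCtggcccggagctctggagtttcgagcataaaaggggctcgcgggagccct
Cxcl2: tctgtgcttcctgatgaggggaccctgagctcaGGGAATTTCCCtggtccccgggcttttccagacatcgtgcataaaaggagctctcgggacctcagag
In Cxcl9 the capitals mark GGGATTTCC at -42 to -34 from the start. In Cxcl10 they mark, in order, GAAAGTGAAA at -213 to -204, GGGAAATTCC at -159 to -150 and GGGACTTCC at -103 to -95. Cxcl1 and Cxcl2, neighbours on chromosome 5, carried matches on both strands that overlap by all but 1 base, and they shared the 14-base run GGGAATTTCCCTGG, beginning at -71 in Cxcl1 and at -97 in Cxcl2. Cxcl14 held GAAACAGAAA at -172 and TTCTGAGAA at -191, and the Cx3cl1 window held none of the 4 motifs. Among 32851 windows of the same length, GGGANTTCC was present in 1.43%, GGGANNTTCC in 1.21%, GAAANNGAAA in 2.98% and TTCNNNGAA in 7.02%. A match is only a run of letters and was not tested as a binding site.

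The values of single kidneys, given below as CPM scaled by library size and composition, showed 5 ligands that were higher in every MRL/lpr kidney than in any control kidney, namely Cxcl9, Cxcl10, Ccl5, Cxcl16 and Cxcl17. Cxcl1 was high in a few Lpr kidneys, Cxcl2 was scarce throughout, Cx3cl1 overlapped in all groups, and Cxcl14 had lower means in both MRL/lpr groups than in Ctr. Throughout, log2 fold changes come from edgeR's quasi-likelihood test with Benjamini-Hochberg adjustment over all genes tested. Each ± SE was computed as the size of the log2 fold change over the square root of that test's F. The 95% intervals were built from this SE with a t quantile and are approximate. A gene was counted as called when the adjusted p was under 0.05 and the log2 fold change was beyond 2 in size, the study's own rule. All 9 ligands passed the filter on low counts in all 3 comparisons. Cxcl17, at 1 to 3 counts in each Ctr kidney, passed it against Ctr only through the MRL/lpr kidneys. Its place in the counts of higher ligands was therefore partly set by that filter. Cxcl9, Cxcl10, Ccl5 and Cxcl17 were called higher in Lpr than in Ctr, which is 4 of the 9 ligands, against 4.65% of the 16074 genes tested. Cxcl16 passed the adjusted p alone, giving 5 of 9 against 7.27% of all genes. The groups did not overlap for the same 5 ligands, against 14.4% of genes that were higher in all Lpr kidneys. The median log2 fold change was 3.21 over the 9 ligands and 0.03 over all genes.

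**Figure D1:**
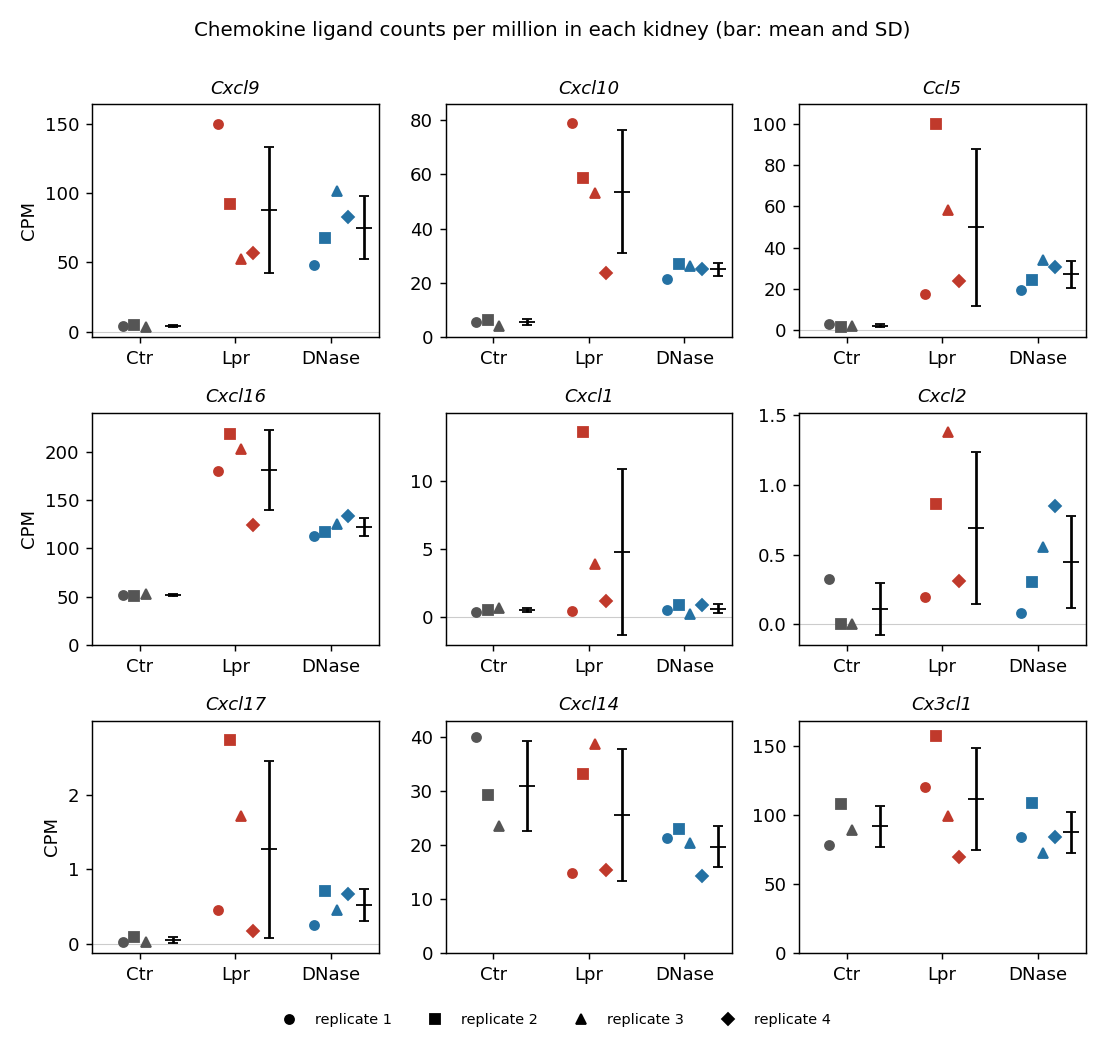
CPM of the 9 ligands on linear axes, 1 panel per gene and 1 point per kidney (3 Ctr, 4 Lpr and 4 DNase), with marker shapes for replicate numbers and a bar for the mean and SD of each group. Cxcl9, Cxcl10, Ccl5, Cxcl16 and Cxcl17 were higher in all 8 MRL/lpr kidneys than in any Ctr kidney, whereas Cxcl1 was high mainly in Lpr replicates 2 and 3.

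Cxcl9, on the minus strand at chr5:92321347-92328079 (GENCODE annotation of mm10), read 4.32, 5.01 and 3.57 CPM in the 3 Ctr kidneys. Its Lpr kidneys read 150, 91.8, 52.4 and 56.6 CPM, and its DNase kidneys read 48.2, 68.0, 102 and 82.6 CPM. All 8 MRL/lpr kidneys stood far above the highest control, and the Lpr and DNase values were interleaved. Cxcl9 rose by 4.36 ± 0.44 in Lpr over Ctr (adjusted p = 0.000713, 95% interval 3.36 to 5.35) and by 4.13 ± 0.27 in DNase over Ctr (adjusted p = 1.22e-05), each in 4 of 4 kidneys. Between DNase and Lpr it differed by -0.22 ± 0.35 (adjusted p = 0.899), and without Lpr replicate 1 that difference turned to 0.17.

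Cxcl10, the neighbouring Cxcr3 ligand on the minus strand at chr5:92346638-92348889, read 5.69, 6.38 and 4.17 CPM in Ctr. In Lpr it read 78.8, 58.6, 53.3 and 23.7 CPM, and in DNase it read 21.3, 26.9, 26.4 and 25.1 CPM. In all, 3 of the Lpr kidneys were above every DNase kidney and Lpr replicate 4 lay among them. Cxcl10 rose by 3.31 ± 0.41 in Lpr over Ctr (adjusted p = 0.00173) and by 2.21 ± 0.16 in DNase over Ctr (adjusted p = 2.11e-05). The difference between DNase and Lpr was -1.10 ± 0.30 (95% interval -1.78 to -0.42), with an unadjusted p of 0.005 from edgeR and an adjusted p of 0.82. Art3 overlaps its exons on the opposite strand over 133 bases, and since the strand used in counting is not given in the sources used here, reads from that overlap cannot be told apart; Art3 had 77 to 258 counts per kidney.

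The pair did not keep its proportion. The ratio of Cxcl9 to Cxcl10 in FPKM, counts scaled by library and by transcript length, which makes levels of different genes comparable, was 0.288 to 0.324 in Ctr. In Lpr the ratio was 0.722, 0.594, 0.373 and 0.905, and in DNase it was 0.858, 0.956, 1.46 and 1.25. Every MRL/lpr kidney therefore had more Cxcl9 per Cxcl10 than any control kidney, and the Lpr and DNase ranges overlapped. The lowest of the Lpr ratios came from replicate 3, where the length trend stood at 0.83 log2 CPM for Cxcl10 and 0.11 for Cxcl9.

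Ccl5, on the minus strand at chr11:83525778-83530518, read 3.00, 1.85 and 2.04 CPM in Ctr. The Lpr kidneys were widely spread at 17.4, 100, 58.0 and 23.8 CPM, while the DNase kidneys read 19.4, 24.2, 34.2 and 30.5 CPM. All 8 were above the controls, and Lpr replicates 2 and 3 were above every DNase kidney. Ccl5 rose by 4.44 ± 0.68 in Lpr over Ctr (adjusted p = 0.0042) and by 3.55 ± 0.25 in DNase over Ctr (adjusted p = 1.94e-05). DNase minus Lpr was -0.87 ± 0.49 (adjusted p = 0.854), and this difference was -0.29 without Lpr replicate 2. With 532 bases, Ccl5 is the shortest of the 9 in the length used for FPKM, and the length trend of Lpr replicate 3 stood at 1.16 log2 CPM for it; the Lpr against Ctr value was 4.35 without that library.

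T cell markers differed between strains in the same direction as Cxcl9, Cxcl10 and Ccl5. Of the 9 T cell markers, 9 were called higher in Lpr than in Ctr, against 4.65% of all genes, the share for every marker list in this comparison. Their summed level was 5.87 to 8.58 CPM in Ctr, 84.0 to 182 in Lpr and 83.3 to 136 in DNase, with no marker at 0 in any kidney. Macrophage markers were called in 7 of 8, summing to 142 to 181 CPM in Ctr, 633 to 1280 in Lpr and 504 to 950 in DNase, again with none at 0. Of the monocyte and dendritic cell markers, 3 of 6 were called and all 6 had fold changes above 0. In the NK and cytotoxic list, 4 of 5 tested were called and 1 had a fold change below 0. Klrb1c of that list averaged 0.27 CPM in Ctr and 0.25 in Lpr. In whole kidney, more cells of a type and more RNA per cell cannot be told apart, and the part of these cells in the ligand levels was not tested.

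Cxcl16, on the minus strand at chr11:70453983-70459984, had the highest mean FPKM of the 9 in every group. It read 51.5, 50.9 and 53.2 CPM in Ctr, 180, 219, 202 and 124 CPM in Lpr, and 113, 117, 125 and 134 CPM in DNase. The controls lay close together and every MRL/lpr kidney exceeded them, while Lpr replicate 4 lay within the DNase range. Cxcl16 rose by 1.81 ± 0.22 in Lpr over Ctr (adjusted p = 0.00158) and by 1.24 ± 0.08 in DNase over Ctr (adjusted p = 1.17e-05), so it passed the test and fell short of the fold rule in both. DNase minus Lpr was -0.56 ± 0.18 (95% interval -0.97 to -0.16), with an unadjusted edgeR p of 0.0117 and an adjusted p of 0.82. Zmynd15 shares 552 bases of exon with Cxcl16 on the opposite strand, 18.3% of the Cxcl16 exons, and its own counts were 124 to 139 in Ctr, 353 to 867 in Lpr and 450 to 554 in DNase, so reads of the overlap could belong to either gene.

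Cx3cl1, the other transmembrane ligand, on the plus strand at chr8:94772009-94782427, behaved differently. Its Ctr kidneys read 78.5, 108 and 89.1 CPM, its Lpr kidneys 120, 157, 99.1 and 69.8 CPM, and its DNase kidneys 84.3, 108, 72.6 and 84.0 CPM. The 3 groups overlapped. The differences were 0.29 ± 0.27 in Lpr over Ctr (adjusted p = 0.613, 95% interval -0.33 to 0.91), -0.07 ± 0.15 in DNase over Ctr (adjusted p = 0.79) and -0.35 ± 0.24 in DNase over Lpr (adjusted p = 0.854). Cxcl16 and Cx3cl1 stood at similar FPKM in Ctr, with ratios of 0.993 to 1.38, and the ratio of Cxcl16 to Cx3cl1 was 2.93 to 4.30 in Lpr and 2.27 to 3.63 in DNase.

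The neutrophil attractants were scarce. Cxcl1, on the plus strand at chr5:90891241-90893115, had 14, 15 and 23 counts in Ctr, 15, 521, 128 and 40 counts in Lpr, and 18, 31, 9 and 34 counts in DNase. In CPM the Lpr kidneys read 0.42, 13.6, 3.85 and 1.14, so that replicate 1 was as low as the controls at 0.38 to 0.69 CPM and replicate 2 was far above the rest. The DNase kidneys read 0.23 to 0.87 CPM, across the control range. The Lpr against Ctr difference of 3.21 ± 1.11 did not pass edgeR's test (adjusted p = 0.122), and it was 1.79 without Lpr replicate 2. It passed with DESeq2 (adjusted p = 0.0394) and without Lpr replicate 1 (adjusted p = 0.0496). DNase minus Lpr was -2.95 ± 0.96, the widest gap between those groups among the 9 ligands, with an unadjusted edgeR p of 0.012 and an adjusted p of 0.82, and it was -1.56 without Lpr replicate 2.

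Cxcl2, on the plus strand at chr5:90903871-90905938, had 12, 0 and 0 counts in Ctr, 7, 33, 46 and 11 in Lpr, and 3, 11, 22 and 33 in DNase. At these depths 1 control library set most of the comparison. The differences were 2.57 ± 1.17 in Lpr over Ctr (adjusted p = 0.252), 1.95 ± 1.08 in DNase over Ctr (adjusted p = 0.249) and -0.61 ± 0.73 in DNase over Lpr (adjusted p = 0.872), and without Ctr replicate 1 the DNase over Ctr value became 7.02 (adjusted p = 0.0464). Its longest transcript aligns to Cxcl3 at 91.6% identity over 320 bases, and Cxcl3 had 0 to 15 counts per kidney. Cxcl1 aligns to Cxcl2 at 78.1% over 347 bases, so the split of reads within this cluster is uncertain.

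Beside these ligands, 3 of the 6 neutrophil markers tested were called higher in Lpr than in Ctr, against 4.65% of all genes. The 8 markers listed summed to 2.43 to 6.38 CPM in Ctr, 16.3 to 44.5 in Lpr and 14.4 to 27.2 in DNase. At most 1 of the 8 was at 0 in a kidney. Markers of injured tubule, called in 3 of 5, summed to 1430 to 1810 CPM in Ctr, 2193 to 12329 in Lpr and 1902 to 2716 in DNase, with none at 0. Lpr replicates 2 and 3, the kidneys with the most Cxcl1, also had the highest mean log2 CPM of injured tubule markers. The same 2 kidneys read highest of the MRL/lpr kidneys for Ccl5, Cxcl2, Cxcl14, Cxcl16 and Cxcl17 as well. These readings are not corrected for the length trend of Lpr replicate 3. There it stood at 1.16 log2 CPM for Ccl5, 1.005 for Cxcl17, 0.90 for Cxcl1 and 0.83 for Cxcl2. For Cxcl16 it was 0.64 and for Cxcl14 0.05, so the rank of that kidney is uncertain for the shorter genes. The part of these markers in the ligand values was not tested.

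Of the epithelial ligands, Cxcl17, a mucosal chemokine on the minus strand at chr7:25400053-25412886, was near the detection limit in control kidney. It had 1, 3 and 1 counts in Ctr, 16, 105, 57 and 6 in Lpr, and 9, 26, 18 and 26 in DNase. Every MRL/lpr kidney had more counts than any control, and Lpr replicates 2 and 3 held most of the Lpr counts. Over pooled counts the Lpr to Ctr ratio was 26.4 (95% exact counting interval 11.1 to 82.2) and the DNase to Ctr ratio was 10.6 (4.36 to 33.6), intervals that cover counting error only. Cxcl17 rose in edgeR's test in Lpr over Ctr (4.59 ± 1.13, adjusted p = 0.0356) and in DNase over Ctr (3.31 ± 0.64, adjusted p = 0.00527), and DNase minus Lpr was -1.28 ± 0.74 (adjusted p = 0.854). The Lpr call was lost without Ctr replicate 1, 2 or 3 (adjusted p = 0.151, 0.0947 and 0.136), and without Lpr replicate 1, 2 or 3 the gene was under the filter on low counts and was not tested, as in DNase over Ctr without DNase replicate 2, 3 or 4.

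Cxcl14, on the minus strand at chr13:56288643-56296551, was the member with the opposite tendency. It read 39.9, 29.3 and 23.4 CPM in Ctr, 14.8, 33, 38.6 and 15.4 CPM in Lpr, and 21.2, 22.9, 20.4 and 14.2 CPM in DNase. The Lpr kidneys fell into a low pair, replicates 1 and 4, and a pair at control levels. All 4 DNase kidneys were below the lowest control, and DNase replicate 4 was near the low Lpr pair. Lpr over Ctr was -0.27 ± 0.38 (adjusted p = 0.737) and DNase over Lpr was -0.37 ± 0.33 (adjusted p = 0.854). Cxcl14 fell in DNase against Ctr by edgeR (-0.65 ± 0.20, adjusted p = 0.0495, with 4 of 4 kidneys below every control), against 8.61% of genes that passed lower and 13.9% whose groups did not overlap and were lower. It no longer passed without Ctr replicate 1 or 2 or any single DNase library, where the adjusted p was 0.0582 to 0.196.

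Markers of tissue that may be carried along with a kidney varied within groups. Urothelium markers summed to 6.99 to 80.3 CPM in Ctr, 4.56 to 67.3 in Lpr and 3.91 to 19.2 in DNase, and adipose markers summed to 45.5 to 489, 30.0 to 552 and 37.6 to 146 CPM, with none at 0 and none of the 4 markers of either list passing the test in Lpr against Ctr. Their part in the levels of the epithelial ligands was not tested.

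Treated kidneys were also compared with controls. In DNase over Ctr, 4 of the 9 ligands were called higher, Cxcl9, Cxcl10, Ccl5 and Cxcl17, against 4.56% of 16100 genes. Adding Cxcl16, 5 passed the adjusted p upward, against 13.1% of genes, and the same 5 did not overlap with Ctr, against 18% of genes. Here too Cxcl17 passed the filter on low counts only through the treated kidneys. The 2 comparisons with Ctr share the 3 control kidneys and are not independent.

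The comparison of treated with untreated MRL/lpr kidneys asked whether DNase I changed ligand levels. No ligand passed edgeR's test in DNase over Lpr, where 0% of the 15832 genes tested passed in either direction, and the lowest adjusted p of any gene was 0.82. All 9 fold changes were below 0, as were 52.9% of all genes, and the median was -0.61 over the 9 ligands and -0.02 over all genes. Several marker lists had fold changes of 1 sign in the same comparison, and none of their genes passed the test. Those of injured tubule were below 0 in 5 of 5 (median log2 fold change -1.38), of macrophages in 8 of 8 (-0.43), of neutrophils in 6 of 6 tested (-0.37), of fibroblasts and mesangium in 4 of 4 (-0.60), of urothelium in 4 of 4 (-1.32) and of adipose tissue in 4 of 4 (-1.86). Those of B cells were above 0 in 5 of 5 (1.38), of podocytes in 4 of 4 (0.29) and of distal tubule in 3 of 3 (0.29). Fibroblast and mesangium markers summed to 309 to 563 CPM in Lpr and 238 to 422 in DNase, and B cell markers to 8.02 to 17.6 and 12.9 to 29.6, with none at 0. The part of these lists in the ligand differences was not tested. At an unadjusted p under 0.05, 3 of the 9 were lower, Cxcl10, Cxcl16 and Cxcl1, against 3.43% of all genes that were lower at that level, and DESeq2 also gave 3. DESeq2 called 5 genes in this comparison and none was a ligand. No ligand had groups that did not overlap, against 1.87% of genes that were lower in all DNase kidneys. The ligands share libraries and Lpr replicates 1 to 3 carry their highest values among MRL/lpr kidneys, so 9 differences in 1 direction are not 9 separate observations. The 95% interval of the difference was -5.09 to -0.81 for Cxcl1, -1.001 to 0.57 for Cxcl9 and -1.96 to 0.22 for Ccl5, so that for Cxcl9 and Ccl5 it held both no difference and a decrease of 2-fold.

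**Figure D2:**
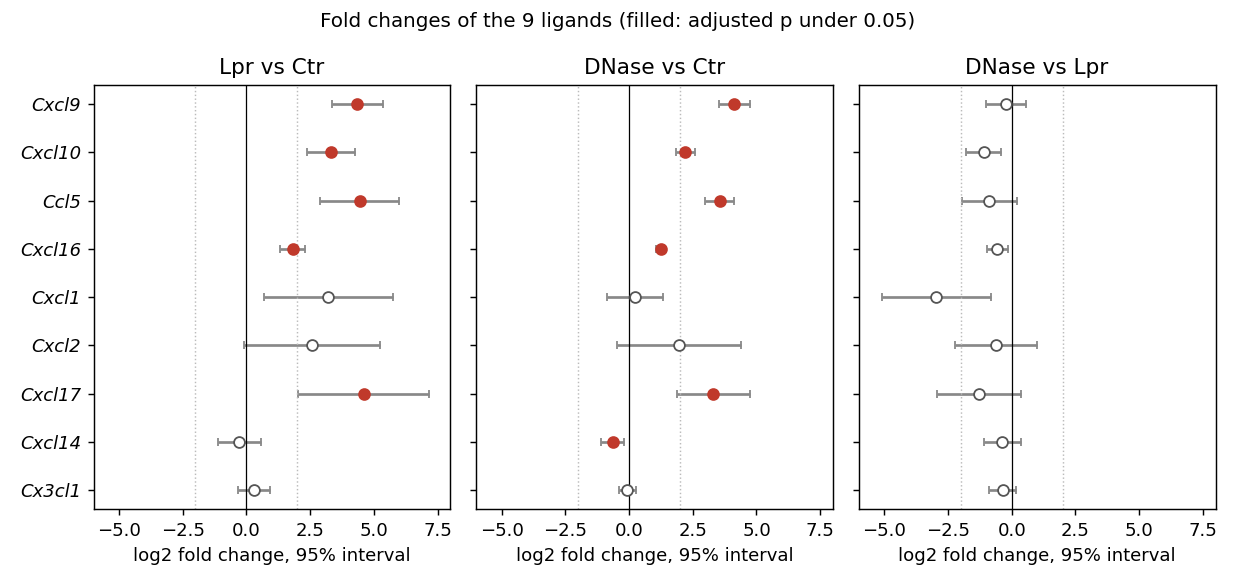
Log2 fold changes of the 9 ligands in 3 comparisons with approximate 95% intervals computed from the F of edgeR's quasi-likelihood test. Points are filled where the adjusted p was under 0.05, and dotted lines are at -2 and 2. In DNase vs Lpr all 9 points lie below 0 and none is filled.

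Compared per length, Cxcl16 led and the scarce ligands Cxcl1, Cxcl2 and Cxcl17 came last in each group. In Ctr, Cxcl16 stood at 33.6 ± 1.59 FPKM (SD, n = 3) and Cx3cl1 at 28.1 ± 3.86, and their ranges overlapped. Cxcl14 followed at 9.55 ± 2.65, above Cxcl10 at 4.73 ± 0.90 and Ccl5 at 4.18 ± 1.19, which overlapped each other. Cxcl9 at 1.43 ± 0.20 and Cxcl1 at 0.52 ± 0.17 were each apart from their neighbours, and Cxcl2 and Cxcl17 were at 0.10 or below.

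In Lpr the order of the mean levels was Cxcl16 at 120 ± 27.0 FPKM (SD, n = 4), Ccl5 at 93.2 ± 73.3, Cxcl10 at 48.2 ± 20.4, Cx3cl1 at 35.3 ± 12.5 and Cxcl9 at 30.1 ± 15.6, each overlapping the next. Cxcl14 was apart from Cxcl9 at 8.02 ± 3.62, and Cxcl1, Cxcl17 and Cxcl2 had means of 5.02, 1.65 and 0.62. In DNase, Cxcl16 at 84.6 ± 5.40 and Ccl5 at 52.6 ± 12.6 were apart from each other and from the rest, and Cx3cl1 at 28.7 ± 5.03, Cxcl9 at 26.7 ± 8.04 and Cxcl10 at 23.4 ± 2.38 overlapped. By mean FPKM, Ccl5 thus stood in the fifth place in Ctr and in the second in both MRL/lpr groups. The place did not hold in every Lpr kidney. In Lpr replicate 1, Ccl5 at 32.4 FPKM was below Cxcl10 at 70.9, Cxcl9 at 51.2 and Cx3cl1 at 37.8.

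The summed FPKM of the 9 ligands was 79.8 to 83.7 in Ctr. It was 317, 514, 334 and 203 in Lpr and 190, 224, 248 and 235 in DNase. In all, 3 of the Lpr kidneys were above all DNase kidneys, and Lpr replicate 4 was among them. The share of Cxcl16 in the sum was 38.1% to 44.0% in Ctr, 29.4% to 42.0% in Lpr and 35.2% to 41.4% in DNase, while Cx3cl1 took 29.3% to 38.4% in Ctr and 8.70% to 16.0% in the MRL/lpr kidneys. Ccl5 took 3.89% to 6.62% in Ctr, 10.2% to 37.7% in Lpr and 20.0% to 27.0% in DNase.

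**Figure D3:**
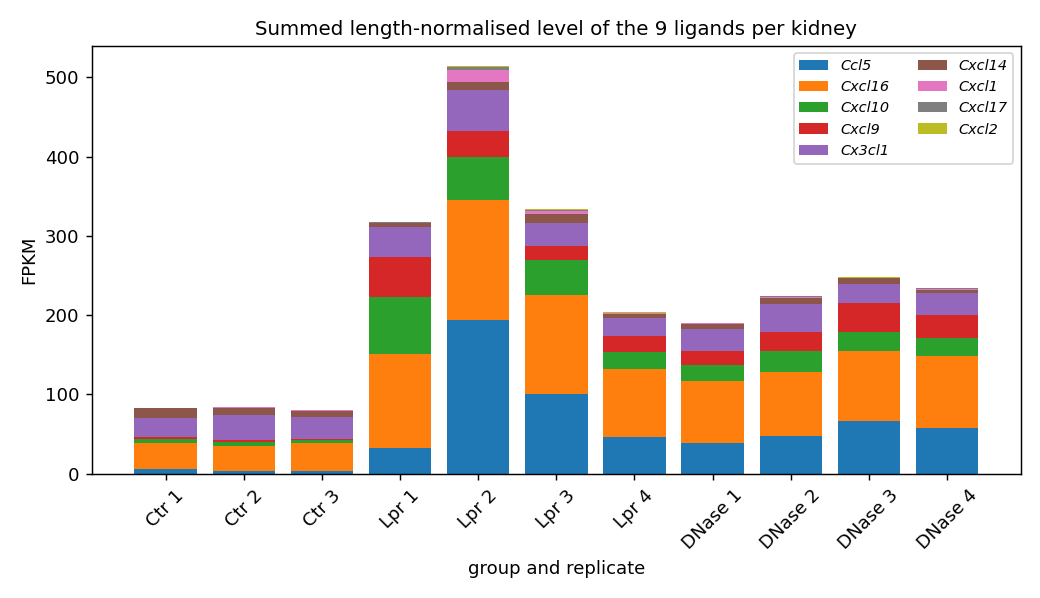
FPKM of the 9 ligands stacked for each of the 11 kidneys, with 1 colour per gene and a linear axis from 0. The Ctr bars are near 80, mostly Cxcl16 and Cx3cl1, and the tallest bar, Lpr replicate 2 at 514, has Ccl5 as its largest segment.

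The receptors of these ligands were examined next, from a list of 11, of which 9 were held and Cxcr1 and Ackr1 were not analysed here. In Lpr over Ctr, 6 of the 8 tested were called higher, against 4.65% of all genes, 7 passed the adjusted p, against 7.27%, and none was lower. The groups did not overlap for 7 of the 8, against 14.4% of genes that were higher in all Lpr kidneys. Ccr3, at 0 to 1 counts in each Ctr kidney, passed the filter on low counts only through the MRL/lpr kidneys. Cxcr3, the receptor of Cxcl9 and Cxcl10, read 1.45, 1.05 and 1.35 CPM in Ctr, 3.40, 5.22, 4.63 and 5.12 in Lpr, and 3.45, 6.33, 6.65 and 5.84 in DNase. It rose by 1.84 ± 0.29 in Lpr (adjusted p = 0.00471) and by 2.11 ± 0.28 in DNase (adjusted p = 0.000573), and DNase minus Lpr was 0.28 ± 0.25 (adjusted p = 0.854). Unlike its ligands, whose differences were below 0, Cxcr3 had a positive difference; the contrast between ligand and receptor was not tested.

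Cxcr6, the receptor of Cxcl16, read 0.38 to 1.64 CPM in Ctr, 3.38, 8.61, 6.86 and 4.32 in Lpr, and 2.10, 5.03, 6.15 and 5.35 in DNase. All MRL/lpr kidneys were above the controls, with a rise of 2.39 ± 0.54 in Lpr (adjusted p = 0.0257) and 2.07 ± 0.50 in DNase (adjusted p = 0.0163). Cx3cr1, the receptor of Cx3cl1 on monocytes and macrophages, read 3.80 to 6.52 CPM in Ctr, 13.6 to 31.4 in Lpr and 14.1 to 21.0 in DNase. It rose by 2.18 ± 0.33 in Lpr (adjusted p = 0.00402) and 1.91 ± 0.22 in DNase (adjusted p = 0.00024), whereas its ligand passed in neither.

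Among the receptors of Ccl5, Ccr1, found on monocytes and neutrophils, rose by 2.60 ± 0.49 in Lpr (adjusted p = 0.0114) and 1.81 ± 0.35 in DNase (adjusted p = 0.00507). Ccr3, the eosinophil receptor, had 1 count in all Ctr kidneys together, 56 in Lpr and 62 in DNase, ratios of 40.1 (95% exact counting interval 6.91 to 1613) and 41.6 (7.20 to 1671), and it passed in both comparisons (adjusted p = 0.0134 and 0.00176).

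Cxcr2, the receptor of Cxcl1 and Cxcl2, was too low to be tested against Ctr, with 2 to 5 counts in Ctr, 45, 22, 7 and 6 in Lpr, and 8 to 18 in DNase. Ackr2, a decoy receptor that removes inflammatory CC chemokines, rose by 2.09 ± 0.46 in Lpr (adjusted p = 0.0215) and 2.28 ± 0.33 in DNase (adjusted p = 0.00109), from 0.21 to 0.48 CPM in Ctr to 0.93 to 2.19 in the MRL/lpr kidneys. Ackr3, an atypical receptor of Cxcl11 and Cxcl12, overlapped in all groups at 52.5 to 104 CPM, with differences of 0.28 ± 0.21 and 0.11 ± 0.12. In DNase over Ctr, 5 of 8 were called, against 4.56% of all genes, and 7 passed, against 13.1%, and in DNase over Lpr 0 of 9 passed.

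**Figure D4:**
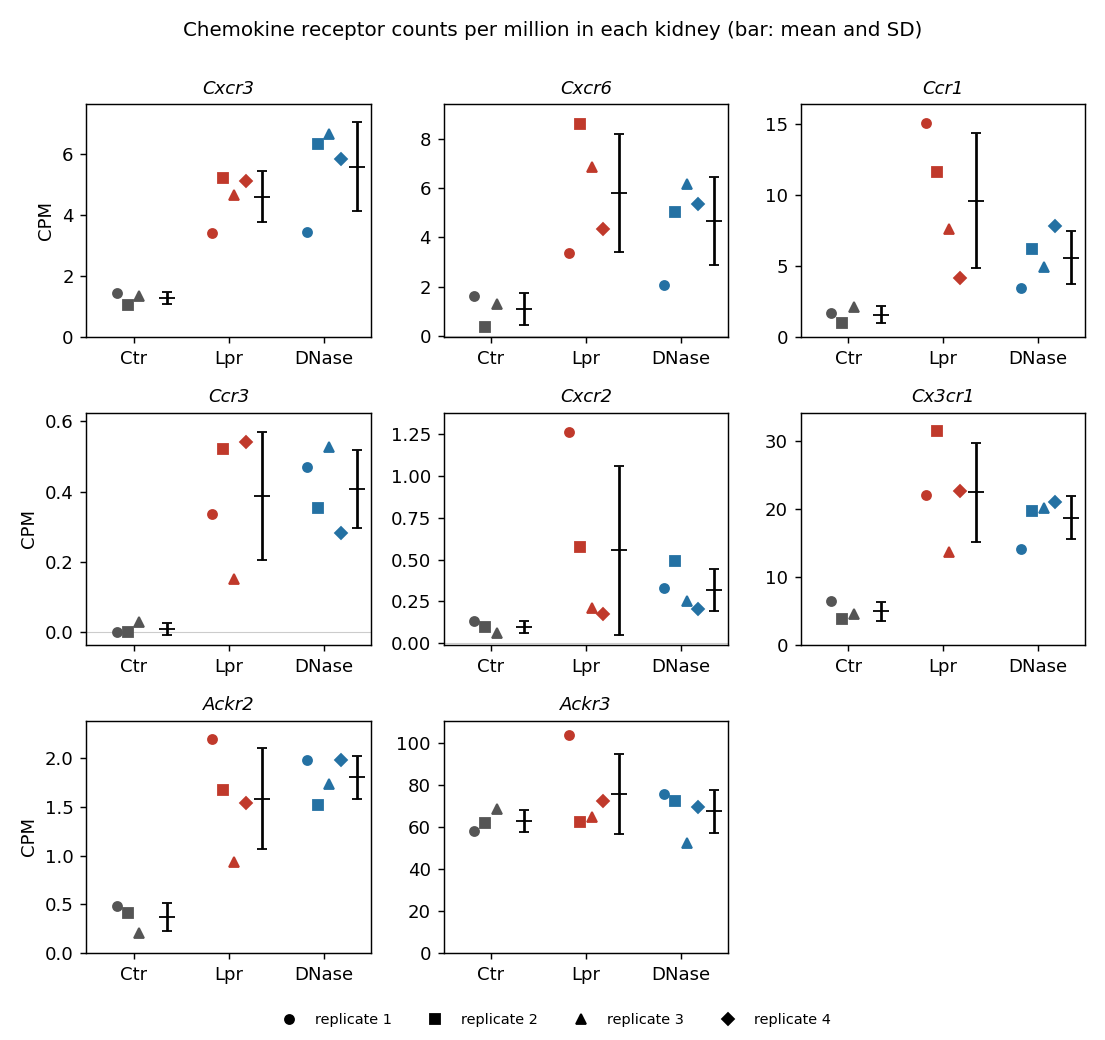
CPM of 8 receptors on linear axes, 1 panel per gene and 1 point per kidney, with marker shapes for replicate numbers and a bar for the mean and SD of each group. Cxcr3, Cxcr6, Ccr1, Ccr3, Cx3cr1, Ackr2 and, at low counts, Cxcr2 were higher in all 8 MRL/lpr kidneys than in the Ctr kidneys, and Ackr3 overlapped. Of all genes tested, 14.4% were higher in all Lpr kidneys than in Ctr, and 18% in all DNase kidneys.

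Of the lists of genes upstream of the ligands, 1 held many genes that passed higher in Lpr and the other held 2 of 15. In the interferon gamma pathway, which induces Cxcl9 and Cxcl10, 7 of 14 tested genes were called higher in Lpr over Ctr, against 4.65% of all genes, and 9 passed, against 7.27%, none lower. The median log2 fold change of the 14 was 2.20. Ifng, Il27 and Il12rb1, at 0 to 6 counts in each Ctr kidney, passed the filter on low counts only through the Lpr kidneys. Their place in these counts was partly set by that filter. Ifng itself had 3, 1 and 1 counts in Ctr, 39, 20, 42 and 23 in Lpr, and 14, 28, 43 and 47 in DNase, a pooled Lpr to Ctr ratio of 17.8 (95% exact counting interval 7.41 to 55.7). It rose in both comparisons with Ctr (adjusted p = 0.00391 and 0.00144), and DNase minus Lpr was -0.03 ± 0.43 (adjusted p = 0.99).

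Il12rb1, a subunit of the IL-12 receptor of T and NK cells, rose by 3.99 ± 0.64 (adjusted p = 0.00502) in Lpr, from 0.16 to 0.18 CPM in Ctr to 0.75 to 3.86. Socs1, the feedback inhibitor of interferon signalling, rose by 3.03 ± 0.46 (adjusted p = 0.00414), reading 1.11 to 1.69 CPM in Ctr, 18.6, 11.1, 7.25 and 5.83 in Lpr, and 6.26 to 10.6 in DNase. Il27, a cytokine of macrophages and dendritic cells, had 2 counts in Ctr against 47 in Lpr, a ratio of 16.8 (4.41 to 143), and passed (adjusted p = 0.0253). In DNase over Ctr, 6 of 13 were called, against 4.56% of all genes, and 11 passed, against 13.1%, and in DNase over Lpr 0 of 15 passed.

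In the TNF, IL-1 and NF-kappaB pathway, which induces Cxcl1 and Cxcl2, 2 of 15 genes were called higher in Lpr over Ctr and the same number passed, against 4.65% and 7.27% of all genes. Of the 15, 14 had fold changes above 0, with a median of 1.13 on the log2 scale; the difference between the lists was not tested. Il1b rose by 3.44 ± 0.49 (adjusted p = 0.00299), reading 1.05 to 1.66 CPM in Ctr, 10.2, 28.3, 14.9 and 8.33 in Lpr, and 18.6, 6.74, 10.7 and 9.21 in DNase. Tnf rose by 2.12 ± 0.54 (adjusted p = 0.0425), reading 0.16 to 0.19 CPM in Ctr and 0.34 to 1.30 in Lpr. With 6 counts in each Ctr kidney, Tnf passed the filter on low counts only through the Lpr kidneys. Lpr replicate 2, with the highest Cxcl1, also read highest for the feedback genes Tnfaip3 (73.5 CPM against 13.0 to 18.1 in the other Lpr kidneys) and Zfp36 (175 against 39.2 to 64.5), 2 genes singled out after their values were seen; neither passed in Lpr over Ctr (adjusted p = 0.0845 and 0.141). In DNase over Ctr, 2 of 14 were called, against 4.56% of all genes, and 7 passed, against 13.1%, and in DNase over Lpr 0 of 15 passed.

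The cleavage list holds the proteases that release Cxcl16 and Cx3cl1, their regulators, and Dpp4 and Mmp9, which trim chemokines. None of its 7 genes was called in Lpr over Ctr, against 4.65% of all genes called higher, a share at which a list of 7 would often hold none. Adam17 passed, rising by 0.77 ± 0.15 (adjusted p = 0.014) from 24.9 to 31.8 CPM in Ctr to 46.6 to 49.4 in Lpr, and by 0.69 ± 0.12 in DNase (adjusted p = 0.0032), where it read 39.5 to 50.1 CPM. Adam10 read 75.2 to 118 CPM over all kidneys, with a Lpr difference of 0.26 ± 0.16 (adjusted p = 0.432). None of the 7 passed in DNase over Lpr.

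Across the 8 MRL/lpr kidneys the members did not vary as 1 block. Described by Pearson's r of log2 CPM, the closest pair was Cxcl10 and Cxcl16 at 0.90, followed by Ccl5 and Cxcl17 at 0.87 and Ccl5 and Cxcl1 at 0.85. Cxcl9 and Ccl5 had an r of -0.04, and Cxcl9 and Cxcl10 one of 0.56. These points share libraries, depth and the length trend of Lpr replicate 3. They also pool untreated and treated mice, so r mixes the group difference with the spread between kidneys.

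Each of the 9 ligands was compared with the mean log2 CPM of 7 marker lists over these 8 kidneys, 63 relations, and none passed at an adjusted p under 0.05. The permutations exchanged Lpr and DNase kidneys freely, so neither r nor p separates treatment from spread within a group. The strongest in size was Cxcl1 with injured tubule markers (r = 0.91, exact permutation p = 0.00508, adjusted p = 0.118; rho = 0.67, exact permutation p = 0.0831, adjusted p = 0.403), with r = 0.66 without Lpr replicates 2 and 3, on which it rests. It was not alone: injured tubule markers gave r = 0.862 with Cxcl17, 0.855 with Cxcl16, 0.81 with Ccl5, 0.742 with Cxcl14 and 0.724 with Cxcl2. Without Lpr replicates 2 and 3 these were 0.36, 0.39, -0.11, -0.45 and 0.32. For Cxcl10, Cx3cl1 and Cxcl9 the r was 0.645, 0.640 and -0.08 over all 8. Ccl5 with T cell markers gave r = 0.87 (exact permutation p = 0.0056, adjusted p = 0.118; rho = 0.90, exact permutation p = 0.00456, adjusted p = 0.144), with r = 0.52 without Lpr replicates 1 and 2. Cxcl9 with T cell markers gave r = 0.12 (exact permutation p = 0.774, adjusted p = 0.871; rho = 0.21, exact permutation p = 0.619, adjusted p = 0.805), with r = 0.87 without Lpr replicates 1 and 2 (exact permutation p = 0.0208, adjusted p = 0.634). Cxcl10 with T cell markers gave r = 0.09 (exact permutation p = 0.834, adjusted p = 0.891; rho = 0.07, exact permutation p = 0.882, adjusted p = 0.942), with r = 0.21 without the same pair. Cxcl9 with urothelium markers gave r = -0.88 (exact permutation p = 0.00412, adjusted p = 0.118; rho = -0.90, exact permutation p = 0.00456, adjusted p = 0.144), with r = -0.88 without Lpr replicates 1 and 4. Cxcl10 with macrophage markers gave r = 0.72 (exact permutation p = 0.0334, adjusted p = 0.191; rho = 0.88, exact permutation p = 0.00724, adjusted p = 0.152) and r = 0.65 without Lpr replicate 2 and DNase replicate 1. Without Lpr replicate 3, Ccl5 with T cell markers passed (r = 0.96, exact permutation p = 0.000397, adjusted p = 0.025).

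**Figure D5:**
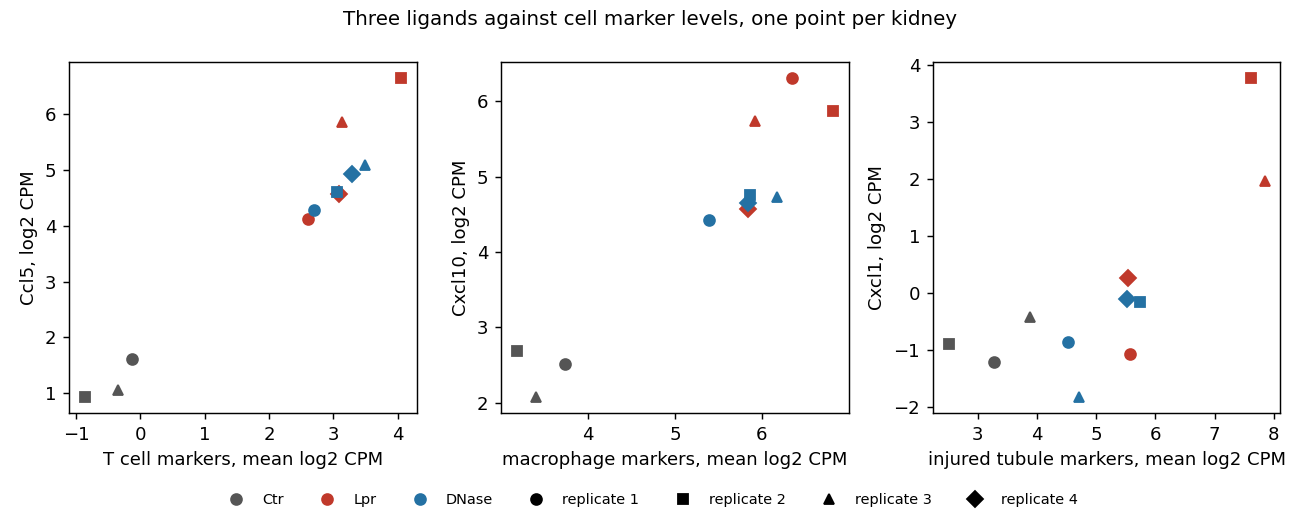
Log2 CPM of Ccl5, Cxcl10 and Cxcl1 against the mean log2 CPM of T cell, macrophage and injured tubule markers, 1 point per kidney, with colours for groups and shapes for replicate numbers. The 3 Ctr kidneys lie apart at the lower left in the first and second panels, and in the third Lpr replicates 2 and 3 lie apart at the upper right.

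The genes whose log2 CPM over the 8 MRL/lpr kidneys was most like each ligand were found among the 13973 genes averaging 1 CPM or more, by Pearson's r, as a description with no test. As the largest of 13973 values over 8 kidneys, the r values are high partly by selection, and they too pool the Lpr and DNase groups. For Cxcl9 the most alike genes were Serpina3g (r = 0.97), Sh3bp2 (0.94) and Ncs1 (0.94). For Cxcl10 they were Ccdc151 (0.98), H2-T23 (0.98), a nonclassical class I gene, and Xaf1 (0.97), an interferon-induced gene. For Cxcl16 they were Tubb6 (0.99), Mvp (0.99) and H2-K1 (0.98), the last a classical class I gene.

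For Ccl5 they included H3f3b (0.98) and Ms4a7 (0.98), a macrophage gene. Cxcl1 was nearest to Rell1 (0.98), Sqle (0.97) and Adm (0.96), and Cxcl2 to Hoxa9 (0.96), Rgs19 (0.95) and Pglyrp1 (0.94), a neutrophil granule gene. Cxcl14 was nearest to Mmp7 (0.98), Pdgfd (0.97) and Tbce (0.97), Cxcl17 to Tnfaip8l1 (0.98), Rab31 (0.96) and Panx1 (0.96), and Cx3cl1 to Gabra3 (0.96), Col4a1 (0.96) and Clca3a1 (0.96).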

How the data were processed

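Total RNA from 11 kidneys was sequenced by the study as paired-end libraries. Per the labels, the authors used fastp, HTSeq and DESeq2 with R 3.2.0 on mm10 (submitters' processing notes), and they deposited unnormalized read counts and FPKM per gene. The study's methods name HTSeq, a read counter, as the software that aligned the reads to reference genes; the annotation and the strand setting are not given in the sources used here. No column of the tables was left unused (0). The 9 held ligands were read from the deposited counts. The members, pathway lists, marker lists and named genes were chosen with earlier results of these data known. All members, all receptors, up to 4 passing genes of each other pathway list with the largest fold change in Lpr over Ctr, and the 3 most alike genes of each member were named, except 1 receptor and 1 alike gene that are not reported here, although list counts include the receptor.

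Each comparison was fitted to its own 2 groups by edgeR 4.0.16 (R 4.3.3) with filterByExpr, TMM scaling and the quasi-likelihood test. CPM used TMM over all libraries, and log2 CPM a prior count of 2. Alternatives were edgeR RLE scaling, no filter, a fit of 3 groups, a replicate block, a gene length offset, DESeq2 1.42.0, limma 3.58.1 on log2(FPKM + 1) and log2(FPKM + 0.1), and leaving out each library. Tests were checked on simulated counts with large planted changes in well-expressed genes. That setting does not cover small differences, scarce genes or a length trend such as that of Lpr replicate 3. Correlations used exact permutation tests (scipy 1.17.1), two-sided. Positions and overlaps came from GENCODE for mm10, transcript identity from blastn 2.17.0, and promoters from RefSeq on GRCm38.p6. Depth was 33469858 to 38460873 counts per library. The study describes the samples as kidneys of 3, 4 and 4 mice, and p-values measure the spread between them.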

Additional observations from a re-analysis of the deposited data

How the results depend on the processing

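Over 27 ligand differences and 429 values under alternatives, 401 kept their direction and side of the adjusted p threshold. A further 18 no longer passed the adjusted p, 3 came to pass it and 7 turned in direction, whatever the fold rule. Settings that gave no adjusted p for a ligand, such as those where it was under the filter, were not counted. The 429 values include those of all 9 differences of DNase over Lpr, none of which passed in the main fit. Staying above the threshold there says little about how stable the calls against Ctr are. The counts of ligands called ranged, leaving out single libraries, from 3 to 4 in Lpr over Ctr, from 0 to 0 in DNase over Lpr and from 3 to 5 in DNase over Ctr. The replicate block gave 4, 0 and 4 called ligands, as without it. The replicate numbers are not stated to pair the mice, and the deviations of same-numbered samples correlated at -0.28 to 0.16, so the block is only a check; under it Cxcl1 in DNase over Ctr turned to -0.075 and Cxcl14 there no longer passed (adjusted p = 0.142), as it did in a fit of 3 groups (0.307) and with limma (0.117 to 0.203). Cxcl17 was lost with limma in Lpr over Ctr (adjusted p = 0.0636 to 0.279) and in the fit of 3 groups in DNase over Ctr (0.0644). Cxcl9 in DNase over Lpr ranged from -0.41 to 0.17 without single libraries, above 0 only without Lpr replicate 1. Cx3cl1 in DNase over Ctr turned to 0.02 with limma at both pseudocounts and without the filter (0.022, 0.023 and 0.022), and ranged from -0.19 to 0.059 without single libraries, above 0 without Ctr replicate 2 and without DNase replicate 3. The receptor, inducer and cleavage lists held 15 called genes in Lpr over Ctr, 11 under the replicate block and 18 with DESeq2, and in DNase over Ctr 13, 11 and 15, and 26 by adjusted p alone. Relations with marker lists past the threshold were 0, and 1 without Lpr replicate 3. The causes were not tested. Low counts limit what depth can show for Cxcl2, Cxcl17 and Ifng, and spread between kidneys limits Cxcl1.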
